A study of Mus musculus with 4 samples.

Results

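The hair shaft keratins are the structural proteins of the hair fibre, and 10 of their genes were followed here in the skin of mice treated with bleomycin (BLM). These were the type I genes Krt31, Krt32, Krt33a, Krt33b, Krt34 and Krt35 and the type II genes Krt81, Krt83, Krt85 and Krt86, taken by name from the 24441 genes of the deposited table, which lists all 10. The 4 libraries came from the skin of female C57BL/6 mice, 2 WT and 2 GSDMD-/- (KO), labelled as postnatal week 8. All 4 received BLM, a cytotoxic antibiotic that causes skin fibrosis, under the skin every other day for 28 days, so no library of this series stands for skin without BLM. The KO line was a commercial Cas9 knockout on the same strain, and from how many founders it descends is not given in the sources used here. Nothing in the labels says which mouse gave which library, so p-values measure only the spread between these libraries. The comparison asked how the loss of GSDMD, the pore-forming executor of pyroptosis, altered gene expression in treated skin, and Gsdmd measured 14.05 and 18.15 FPKM in the WT libraries, against 3.53 and 2.26 FPKM in the KO libraries.

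A hair is built by keratinocytes that leave the dividing matrix at the base of the follicle, fill with keratin and die as they move upwards. A type I and a type II chain pair to form each filament, and the cysteine-rich hair keratins are then cross-linked with keratin-associated proteins. Krt35 and Krt85 are known as the earliest of the set, made as cells leave the matrix. Krt31, Krt33a, Krt33b, Krt34, Krt81, Krt83 and Krt86 follow in the cortex, the bulk of the fibre, and Krt32 belongs to the cuticle, its outer layer of flat cells. Follicles make these proteins in anagen, the growth phase of the hair cycle, and not while they rest in telogen.

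The values are FPKM, fragments scaled by transcript length and by the depth of the library, so levels can be set beside each other between genes. The transcript of a member of known length with 3 fragments would stand between 0.0876 and 0.149 FPKM, depending on its length and on the library, at a depth estimated from the steps between low values. The libraries were not alike in ways that genotype does not describe. KO replicate 2 stood apart on the first principal component, which held 74.1% of the variance. It lay at 75.4, against 6.17 for KO replicate 1 and -27.7 and -53.9 for WT replicates 1 and 2. The genotypes thus lay apart on this component as well. Its 7 fibroblast genes summed to 30.1 FPKM, against 183.4 to 436.8 FPKM in the other 3 libraries. Its 4 Y-linked genes Ddx3y, Eif2s3y, Kdm5d and Uty summed to 1.78 FPKM, against 0 in the other 3, although the mice are labelled female. The basal epidermal keratins Krt5 and Krt14 showed that skin epithelium was present in every library. Their sum was 2057 and 1980 FPKM in the WT libraries, against 4416 and 4399 FPKM in the KO libraries. Krt2, a keratin of the upper epidermis, was at most 0.0662 FPKM. Genes of skeletal muscle were abundant in all 4 libraries, with sums over 6 genes from 12790 to 20810 FPKM.

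The hair shaft keratins were high in KO replicate 1 and low in the other libraries. In this library the 10 genes ran from 4.68 to 16.7 FPKM and summed to 90.7 FPKM. The sum was 1.47 and 1.21 FPKM in the WT libraries, where no member reached 0.5 FPKM, and 8.97 FPKM in KO replicate 2. All 10 members had their highest value in KO replicate 1, as did 21.8% of the 19663 genes with a value above 0 in any library. On the log2(FPKM + 1) scale KO replicate 1 lay 1.83 to 3.52 units above the mean of the other 3 libraries, and 9 of 10 members lay at least 2 units above it, against 0.498% of all genes. In bulk skin, fewer cells of a type and less RNA per cell cannot be told apart.

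**Figure D1:**
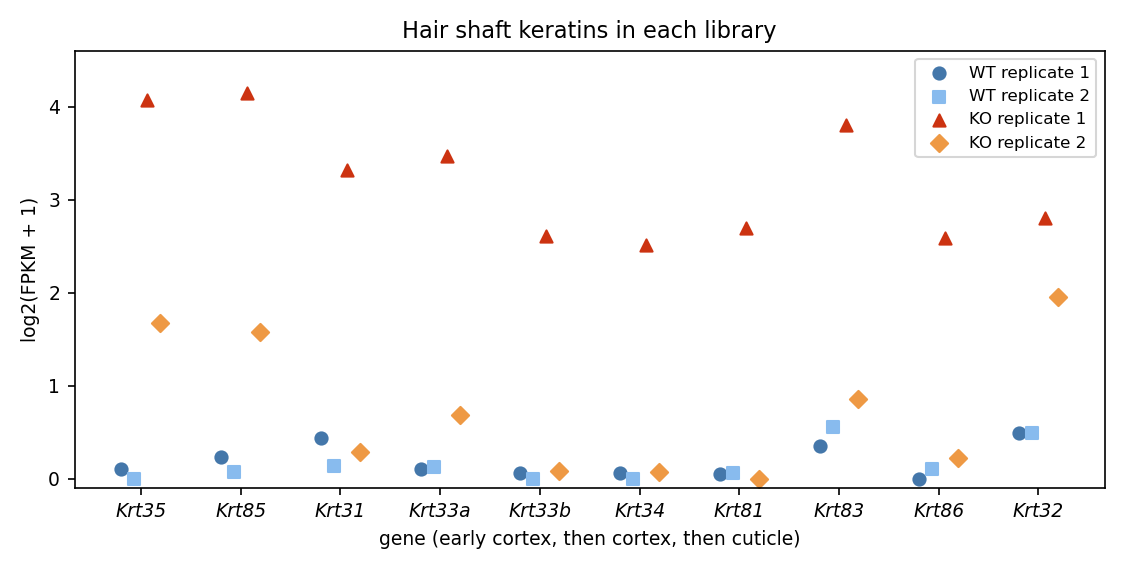
Level of each hair shaft keratin, as log2(FPKM + 1), in the 2 WT and 2 KO libraries, 1 point per library. KO replicate 1 is the highest for all 10 genes, and KO replicate 2 is clear of both WT libraries for Krt35, Krt85 and Krt32.

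Krt35, the earliest type I chain, measured 0.0712 and 0 FPKM in the WT libraries, with replicate 1 given before replicate 2 throughout, against 15.7 and 2.20 FPKM in the KO libraries. Both KO libraries were above both WT libraries, and KO replicate 1 was 7.17 times as high as KO replicate 2. Krt85, its type II counterpart in early cells, measured 0.177 and 0.0530 FPKM in the WT libraries, against 16.7 and 1.99 FPKM in the KO libraries. It showed the same order of libraries, with KO replicate 1 8.39 times as high as KO replicate 2. These were the most abundant members in KO replicate 1. Krt32, the cuticle chain, had the narrowest spread between KO libraries. It measured 0.406 and 0.401 FPKM in the WT libraries, against 5.99 and 2.88 FPKM in the KO libraries, so that KO replicate 1 was 2.08 times as high as KO replicate 2. In mm9 the gene spans 99942162 to 99949540 of chromosome 11, and it shares exonic sequence with Gm11571 on the opposite strand. Whether the counting used strand is not given in the sources used here. Krt35 lies close by, from 99953506 to 99957555.

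The other type I chains, all of the cortex, stayed under 1 FPKM outside KO replicate 1. Krt31 measured 0.355 and 0.0952 FPKM in the WT libraries, against 8.96 and 0.216 FPKM in the KO libraries. WT replicate 1 was above KO replicate 2, so the groups overlapped. Krt33a measured 0.0734 and 0.0887 FPKM in the WT libraries, against 10.1 and 0.603 FPKM in the KO libraries. It was the only one of these 4 genes with over 0.5 FPKM in KO replicate 2, an estimated 12.9 fragments, and the groups did not overlap. Krt33b measured 0.0395 and 0 FPKM in the WT libraries, against 5.11 and 0.0540 FPKM in the KO libraries. Krt34 measured 0.0386 and 0 FPKM in the WT libraries, against 4.68 and 0.0529 FPKM in the KO libraries. In both genes KO replicate 2 and WT replicate 1 each rested on about 1 fragment, so that a difference between these libraries was not detectable at this depth.

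Krt31, Krt32, Krt33b and Krt34 lie in the type I cluster on the minus strand of chromosome 11, and their promoters are shown as those members with an entry in the RefSeq promoter table used here, to set beside genes that were highest in the same library. The sequences are the 250 bases before each transcription start from RefSeq (GRCm38.p6), which matched mm9 exactly at chr11:99911866-99912115 for Krt31, chr11:99949584-99949833 for Krt32, chr11:99891183-99891432 for Krt33b and chr11:99902869-99903118 for Krt34. They are written 5′ to 3′ in the direction of transcription. Capitals mark 3 motifs searched on both strands: TATAAA, the core of a TATA box, CTTTGAA, a form of the site bound by Lef1, and TTTATG, which holds the TTTAT core preferred by posterior Hox proteins such as Hoxc13.
Krt31: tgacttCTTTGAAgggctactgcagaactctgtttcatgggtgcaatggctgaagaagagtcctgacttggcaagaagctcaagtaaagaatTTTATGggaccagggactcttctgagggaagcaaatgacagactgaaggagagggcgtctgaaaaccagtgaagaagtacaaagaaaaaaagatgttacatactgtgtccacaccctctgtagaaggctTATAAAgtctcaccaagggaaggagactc
Krt32: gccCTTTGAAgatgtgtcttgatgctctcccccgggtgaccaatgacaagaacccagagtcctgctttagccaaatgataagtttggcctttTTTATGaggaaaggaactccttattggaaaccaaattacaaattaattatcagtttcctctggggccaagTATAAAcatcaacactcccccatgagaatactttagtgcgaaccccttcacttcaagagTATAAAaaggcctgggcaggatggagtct
Krt33b: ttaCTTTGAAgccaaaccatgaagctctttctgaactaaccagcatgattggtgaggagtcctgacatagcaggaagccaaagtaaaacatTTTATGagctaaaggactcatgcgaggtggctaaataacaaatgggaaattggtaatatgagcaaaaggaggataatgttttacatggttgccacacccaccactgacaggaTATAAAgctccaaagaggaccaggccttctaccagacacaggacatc
Krt34: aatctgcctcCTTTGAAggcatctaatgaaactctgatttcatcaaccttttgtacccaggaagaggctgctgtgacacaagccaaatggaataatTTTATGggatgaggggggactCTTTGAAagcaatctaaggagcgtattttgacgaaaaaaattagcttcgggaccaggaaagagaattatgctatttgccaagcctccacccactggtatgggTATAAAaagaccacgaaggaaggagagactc

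All 4 windows held all 3 motifs, and no match overlapped another. CTTTGAA began 240 to 247 bases before the start, TTTATG 154 to 159 bases before it, and the TATAAA nearest to the start 29 to 47 bases before it. Krt32 had a further TATAAA 88 bases before the start, and Krt34 a further CTTTGAA 133 bases before it. Over all 32851 promoter windows of the same length, TATAAA was present in 12.4%, CTTTGAA in 4.46% and TTTATG in 10.8%, and 0.146% held all 3. The motifs were chosen after some of these promoters had been read. The genes are related copies, a match is a string of letters and not a bound site, and the promoters of the other 6 members were not used here.

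Among the type II chains of the cortex, Krt83 was the most abundant. It measured 0.278 and 0.463 FPKM in the WT libraries, against 12.9 and 0.810 FPKM in the KO libraries, without overlap of the groups. Krt86 measured 0 and 0.0743 FPKM in the WT libraries, against 4.995 and 0.168 FPKM in the KO libraries, with an estimated 4.18 fragments in KO replicate 2. Krt81 measured 0.0326 and 0.0395 FPKM in the WT libraries, against 5.49 and 0 FPKM in the KO libraries. It was the member listed at 0 in KO replicate 2, and with about 1 fragment in each WT library no order of these 3 libraries can be read. These genes lie close together on chromosome 15 of mm9: Krt81 from 101289492 to 101294196, Krt86 from 101303909 to 101310414 and Krt83 from 101315562 to 101321943. The annotation of mm9 names the last locus 5430421N21Rik and gives the name Krt83 to the locus listed in the table as Krt87, so Krt83 here means the locus with the coordinates above. The locus that the table gives for Krt85 is 175822 bases long and takes in 7 annotated genes, among them Krt6b and Krt75. Krt75, a keratin of the companion layer, measured 3.59 and 2.10 FPKM in the WT libraries, against 14.2 and 23.4 FPKM in the KO libraries. Both KO libraries were above both WT libraries, as for Krt85, but KO replicate 2 was the highest. Krt6b measured 172.6 and 36.7 FPKM in the WT libraries, against 125.9 and 11.2 FPKM in the KO libraries, with WT replicate 1 the highest. The further genes of this locus were not compared with Krt85 here, and their profiles may differ from these. Whether fragments of any neighbour in the locus entered the value of Krt85 was not tested.

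Between genotypes, the listed values of both KO libraries were above those of both WT libraries in 8 of 10 members, all but Krt31 and Krt81, and this order was found in 28.8% of the genes above 0. In Krt33b and Krt34, which the 8 include, it rested on about 1 fragment in KO replicate 2 and in WT replicate 1, so that no order of these libraries can be read from them. Krt86 rested on an estimated 4.18 fragments in KO replicate 2 and 2.08 in WT replicate 2. The test by limma took genes that reached 1 FPKM in 2 or more libraries, and 3 members, Krt32, Krt35 and Krt85, passed this filter. They passed it through the KO libraries alone, so a difference between groups was built into the filter. The log2 fold change of Krt35 was 2.82 ± 0.78 (SE, limma, adjusted p = 0.248 after Benjamini-Hochberg). With WT values this near 0 its size was set by the pseudocount, and it was 3.63 with a pseudocount of 0.5 and 5.53 with 0.1. The log2 fold change of Krt85 was 2.71 ± 0.84 (SE, limma, adjusted p = 0.254), and that of Krt32 was 1.89 ± 0.35 (SE, limma, adjusted p = 0.248), and with a pseudocount of 0.1 these became 4.85 and 3.08. None of the 3 was called at an adjusted p under 0.05 with an absolute log2 fold change above 1, and neither was any of the 13027 tested genes (0%). At an unadjusted p under 0.05 all 3 were past the same fold limit, which 6.16% of tested genes were as higher in KO.

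With all 19663 genes above 0 in the fit, the 10 members had log2 fold changes from 1.26 (Krt34) to 2.82 (Krt35), with a median of 1.69 against 0.02 for all genes. All 10 exceeded 1, as did 5.10% of genes. Krt32, Krt35 and Krt85 again had an unadjusted p under 0.05 with a log2 fold change above 1, as did 3.43% of genes, and the adjusted p of the 10 members ran from 0.375 to 0.564 by limma, with 0% of genes called. For the 7 members that had failed the filter, the standard errors were between 0.83 and 1.07. For any 1 gene, the exact permutation test (two-sided) with 2 libraries in each group has 0.333 as its smallest p.

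The size of the fold changes depended on which KO library was in the fit. Without KO replicate 1, the log2 fold change was 1.63 for Krt35, 1.43 for Krt85 and 1.47 for Krt32. It was then between -0.051 and 0.57 for the other 7 members, with Krt31 and Krt81 on the other side of 0. Krt35, Krt85 and Krt32 are the members that reached 1 FPKM in KO replicate 2, which the filter required, so their distance from the other 7 restates the filter. All 3 were called in this fit, with adjusted p-values of 0.0138, 0.0232 and 0.0204 by limma, as were 15.8% of tested genes. Without KO replicate 2 the log2 fold changes of Krt35, Krt85 and Krt32 were 4.02, 3.99 and 2.32. All 3 were called there too, with adjusted p-values of 0.00331, 0.00331 and 0.0322 by limma, as were 0.33% of tested genes. Because the filter, set on all 4 libraries, let these members in through both KO libraries, the calls are not read as support for a difference. In both fits the lone KO library is assumed to vary like the WT libraries.

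**Figure D2:**
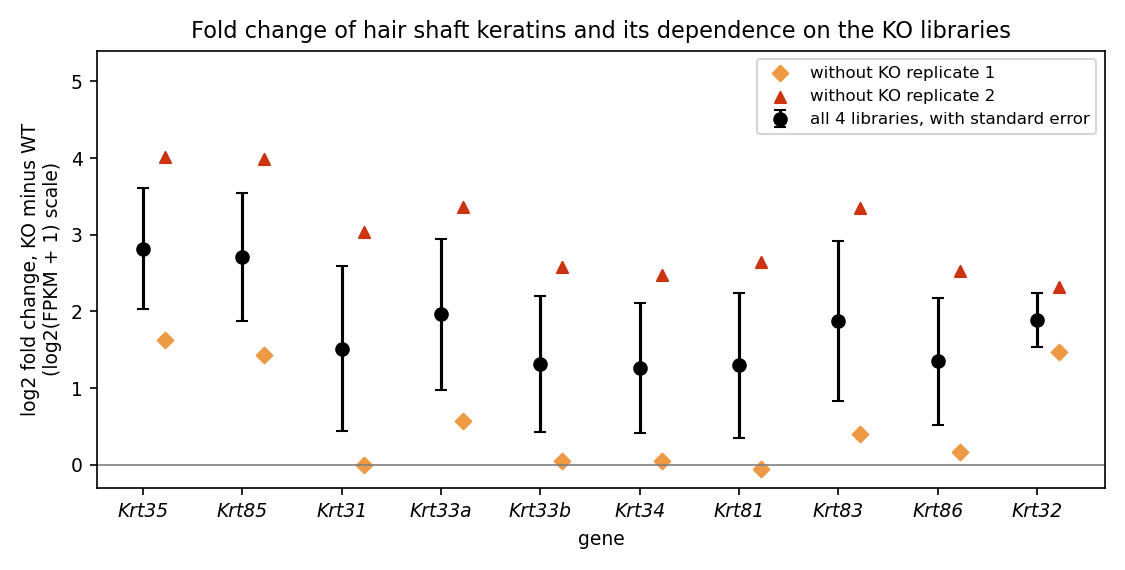
Log2 fold change of each hair shaft keratin between KO and WT on the log2(FPKM + 1) scale, from all 4 libraries with its standard error (black) and with either KO library left out. The values without KO replicate 1 lie near 0 for Krt31, Krt33b, Krt34, Krt81 and Krt86 and between 1.43 and 1.63 for Krt35, Krt85 and Krt32.

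The KO libraries differed in the make-up of the set as well as in its level. KO replicate 2 held 48.0% of the KO replicate 1 value of Krt32, 13.9% of that of Krt35 and 11.9% of that of Krt85. The shares were 6.28% for Krt83, 5.98% for Krt33a, 3.36% for Krt86 and 2.41% for Krt31. They were 1.13% for Krt34, 1.06% for Krt33b and 0% for Krt81. The cuticle chain and the early pair thus came before all 7 cortex chains in this order. Together, Krt32, Krt35 and Krt85 made up 42.4% of the summed members in KO replicate 1 and 78.8% in KO replicate 2. Krt31, Krt33a, Krt33b and Krt34 made up 31.8% and 10.3% in these libraries, and Krt81, Krt83 and Krt86 made up 25.8% and 10.9%. With 1 library for each of these mixtures, the difference between them has no replicate check.

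**Figure D3:**
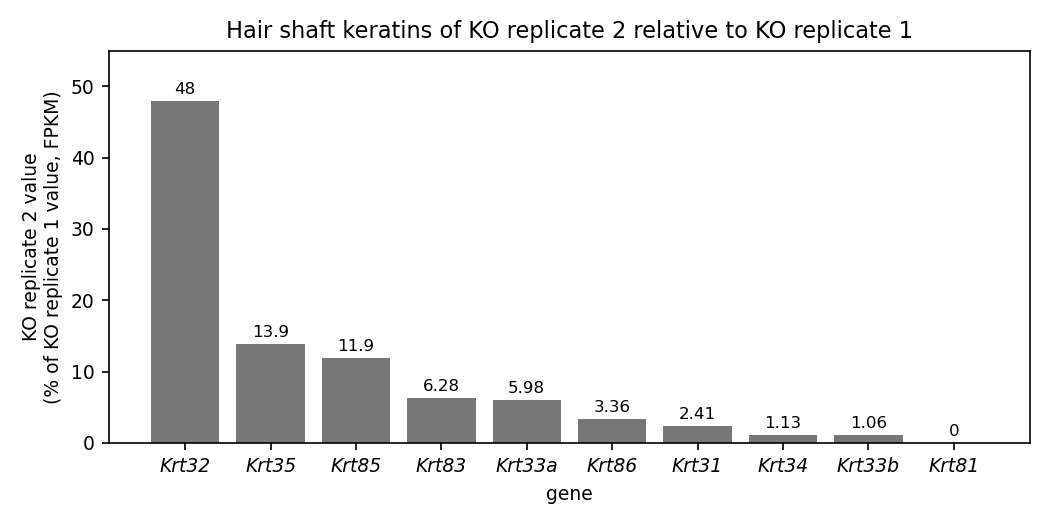
FPKM of each hair shaft keratin in KO replicate 2 as a percent of its FPKM in KO replicate 1, in descending order, without replicates. The bars fall from 48.0% for Krt32 through 13.9% for Krt35 and 11.9% for Krt85 to 0% for Krt81.

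In KO replicate 1 the order of levels was Krt85, Krt35, Krt83, Krt33a, Krt31, Krt32, Krt81, Krt33b, Krt86 and Krt34. In KO replicate 2 it began with Krt32 at 2.88, Krt35 at 2.20 and Krt85 at 1.99 FPKM. The KO means were 9.34 ± 10.4 FPKM for Krt85 and 8.97 ± 9.58 FPKM for Krt35 (SD, n = 2 each), and they were 6.86 ± 8.55 FPKM for Krt83 and 4.43 ± 2.20 FPKM for Krt32 (SD, n = 2 each). Krt33a and Krt31, with KO means of 5.35 and 4.59 FPKM, lay between Krt83 and Krt32. Each SD holds the difference in level between the KO libraries, which goes the same way in all members. It therefore does not test the order of the genes. Krt35 and Krt85 were both above Krt83 in each KO library, and they changed places with each other between these libraries. Type I chains summed to 1.26 times the type II chains in KO replicate 1 and to 2.02 times in KO replicate 2. In WT replicates 1 and 2 this ratio was 2.02 and 0.928, on sums that reached at most 0.983 FPKM.

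As a percent of the Krt5 and Krt14 sum of the same library, the 10 members together came to 0.0715% and 0.0614% in WT replicates 1 and 2. The percent was 2.05% in KO replicate 1 and 0.204% in KO replicate 2. This scale was chosen after the data had been seen. Relative to basal keratins, too, both KO libraries were above both WT libraries, and the KO libraries differed from each other although their Krt5 and Krt14 sums were close. Keratins and envelope proteins of the differentiated epidermis were not close between them. Krt1 measured 668.1 and 381.0 FPKM in the WT libraries, against 1665 and 279.9 FPKM in the KO libraries. Krt10 and Lor, too, were highest in KO replicate 1 and lowest in KO replicate 2, which held 16.8% of the KO replicate 1 value of Krt1, 15.9% of that of Krt10 and 5.45% of that of Lor. The part of epidermal differentiation in the difference between the KO libraries was not tested.

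Several, but not all, of the other gene lists of the hair follicle were also high in KO replicate 1. The 6 remaining hair keratins Krt36, Krt39, Krt40, Krt82, Krt84 and Krt87 summed to 11.3 FPKM there and to 0.436 to 1.04 FPKM in the other libraries, and all 6 were highest there. Of the 54 keratin-associated proteins, which cross-link the shaft, 51 were above 0 and 49 were highest in KO replicate 1. They summed to 420.3 FPKM in KO replicate 1, to 12.4 FPKM in KO replicate 2 and to 11.4 and 6.15 FPKM in WT. The 9 genes of the inner root sheath, the layer that moulds the growing shaft, summed to 320.8 FPKM in KO replicate 1, to 6.61 FPKM in KO replicate 2 and to 8.45 and 0.669 FPKM in WT. KO replicate 2 held 2.95% of the KO replicate 1 sum of the keratin-associated proteins and 2.06% of that of the inner root sheath genes. Its sum was 12.4 against 11.4 FPKM in the higher WT library for the keratin-associated proteins, and it lay between the WT libraries for the inner root sheath. Of the 54 keratin-associated proteins 36 were at 0 in KO replicate 2, against 24 and 44 in the WT libraries. Both KO libraries were above both WT libraries in 15 of the 51 above 0. This order was found in 28.8% of all genes above 0, a share near that of this list, so nothing is read from the count. Of these lists, 6 keratin-associated proteins and 5 inner root sheath genes passed the filter, and 2 and 1 of them, Krtap8-1, Krtap17-1 and Krt28, had an unadjusted p under 0.05 and a log2 fold change above 1, as did 6.16% of all tested genes. These 3 genes passed the filter through the KO libraries alone, so that nothing is read from their number. Of 6 non-keratin proteins of the shaft 5 were highest in KO replicate 1, and they differed widely. The cuticle protein S100a3 measured 3.05 and 2.00 FPKM in the WT libraries, against 130.7 and 5.18 FPKM in the KO libraries. Dsc2, a desmosomal cadherin, was highest in KO replicate 2, with 0.415 and 0.279 FPKM in the WT libraries, against 1.46 and 5.397 FPKM in the KO libraries. Tgm3, a protein cross-linking enzyme, overlapped between the groups, with 3.06 and 1.25 FPKM in the WT libraries, against 3.82 and 1.18 FPKM in the KO libraries. Dsg4, the desmosomal cadherin of the shaft, was at most 0.165 FPKM.

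The companion layer and outer root sheath, which surround the inner root sheath, did not follow the shaft genes as a list. Of 6 genes 3 were highest in KO replicate 1, and the sum in KO replicate 2 was 67.7% of that in KO replicate 1. Krt15, a keratin of basal outer root sheath cells, measured 128.2 and 118.4 FPKM in the WT libraries, against 225.2 and 670.3 FPKM in the KO libraries, and was highest in KO replicate 2 as Krt75 was.

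Of 11 genes known to act in the hair matrix or on hair keratin expression, 8 were highest in KO replicate 1 and 9 had both KO libraries above both WT libraries, an order found in 28.8% of the genes above 0. The 9 include Shh, with values near 1 fragment in KO replicate 2 and WT replicate 1, and Trps1, with a log2 fold change of 0.05 (adjusted p = 0.915 by limma). Among them 8 passed the filter, and Hoxc13, Foxq1 and Gata3 were higher at an unadjusted p under 0.05 with a log2 fold change above 1, as were 6.16% of all tested genes. Hoxc13, a homeobox factor needed for hair shaft keratin expression, measured 1.08 and 0.350 FPKM in the WT libraries, against 6.37 and 3.06 FPKM in the KO libraries. Its KO replicate 2 value was 48.0% of that of KO replicate 1, the same share as for Krt32, and its log2 difference was 1.71 ± 0.40 (SE, limma, adjusted p = 0.248), which was not called. Foxn1, the factor mutated in nude mice, measured 1.00 and 0.488 FPKM in the WT libraries, against 2.74 and 1.69 FPKM in the KO libraries. Lef1, a Wnt effector of the hair matrix, measured 0.404 and 0.0620 FPKM in the WT libraries, against 2.73 and 0.572 FPKM in the KO libraries, and failed the filter. Msx2, a homeobox factor of the matrix and shaft, measured 0.574 and 0.566 FPKM in the WT libraries, against 4.63 and 1.28 FPKM in the KO libraries. Dlx3, a homeobox factor of the matrix, measured 3.77 and 1.54 FPKM in the WT libraries, against 15.5 and 2.22 FPKM in the KO libraries, so that KO replicate 2 held 14.3% of KO replicate 1 and the groups overlapped. Shh, a signal from matrix cells, measured 0.0216 and 0 FPKM in the WT libraries, against 0.743 and 0.0297 FPKM in the KO libraries. Gata3 and Foxq1 were higher in KO replicate 2 than in KO replicate 1, at 146% and 151% of it. Trps1 lay between 1.35 and 1.49 FPKM in all 4 libraries.

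Markers of other cell types moved in part with the hair shaft keratins. The 8 melanocyte genes, which supply pigment to the growing shaft, summed to 83.0 FPKM in KO replicate 1 and to 7.86 to 12.6 FPKM in the other 3 libraries, and 6 of 8 were highest in KO replicate 1. All 7 fibroblast genes were highest in KO replicate 1 as well, with a sum of 436.8 FPKM, against 274.5 and 183.4 FPKM in WT. The 7 proliferation genes were highest in KO replicate 2, where they summed to 79.2 FPKM, against 46.7 FPKM in KO replicate 1 and 26.7 and 13.2 FPKM in WT. Of 7 macrophage genes 5 were lower in KO at an unadjusted p under 0.05 with a log2 fold change below -1, as were 4.14% of tested genes. The 6 endothelial genes summed to 67.6 and 98.1 FPKM in the WT libraries, 93.0 FPKM in KO replicate 1 and 7.88 FPKM in KO replicate 2, or 8.47% of KO replicate 1. The 6 adipocyte genes in KO replicate 2 summed to 9.82% of their sum in KO replicate 1. The 5 sebocyte genes went the other way, at 275% of KO replicate 1. Their sums overlapped between the groups, with 582.0 and 1697 FPKM in the WT libraries, against 552.7 and 1517 FPKM in the KO libraries. Scd1, the most abundant of them, alone measured 564.2 and 1685 FPKM in WT, against 474.2 and 1129 FPKM in KO. The part of cell mixture, of the site of the biopsy and of the stage of the hair cycle in the levels of hair shaft keratins was not tested.

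**Figure D4:**
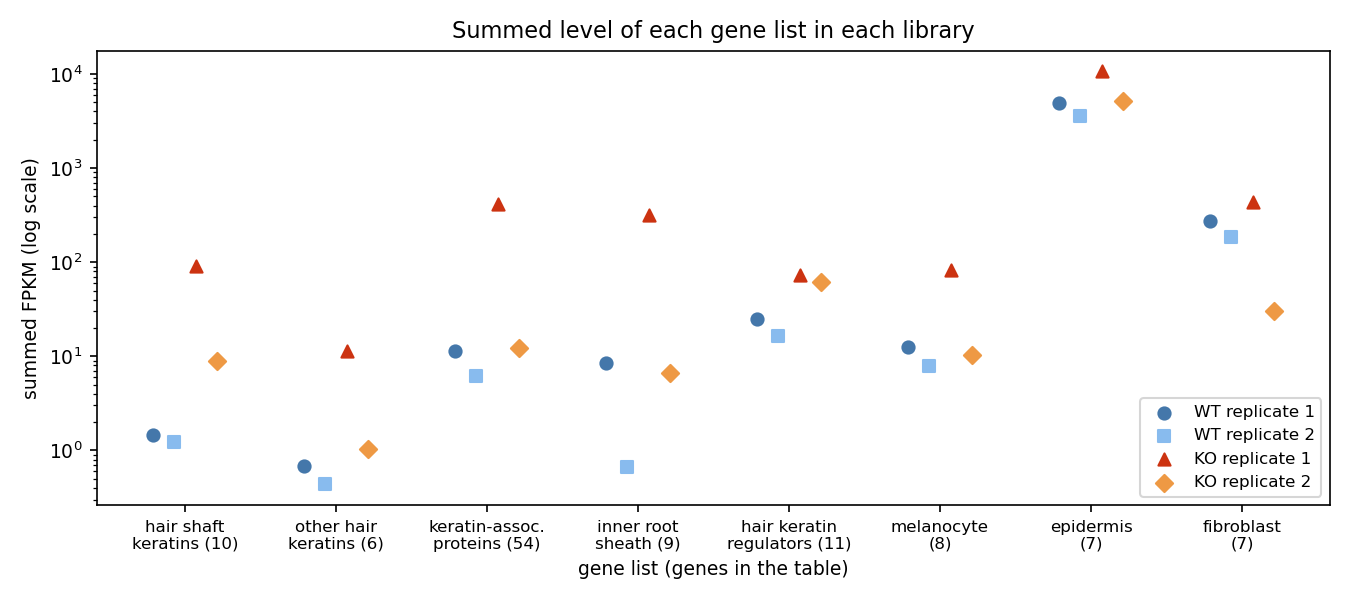
Summed FPKM of 8 gene lists in each library, on a log axis, 1 point per library and the number of genes of each list in brackets. KO replicate 1 is highest in all 8 lists, and KO replicate 2 lies above both WT libraries for the hair shaft keratins, the other hair keratins, the keratin-associated proteins, the regulators and the epidermal genes.

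Among the 13027 tested genes, those whose profile was most like that of the tested members were found by distance between log2(FPKM + 1) profiles over the 4 libraries, each centred on its mean. The mean profile of Krt32, Krt35 and Krt85 was the reference, and the members themselves lay 0.473 to 0.965 from it. Krtap17-1, a keratin-associated protein, was the nearest other tested gene at a distance of 0.578, with 0.525 and 0.241 FPKM in the WT libraries, against 17.7 and 1.84 FPKM in the KO libraries. Wfdc18 followed at 0.653, with 0.378 and 0.408 FPKM in the WT libraries, against 8.52 and 3.48 FPKM in the KO libraries. Krt28, an inner root sheath keratin, lay at 0.900, the agouti gene a at 1.01 and the T-box factor Tbx1 at 1.06. Genes that failed the filter were not ranked, and some of them may lie as near. Tbx1 was already expressed in WT skin, at 4.98 and 2.09 FPKM, and had 25.1 and 14.3 FPKM in KO libraries.

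Close copies limit how well single members can be told apart. Between Krt31, Krt33a, Krt33b and Krt34 the aligned transcripts were 84.2% to 88.3% identical, and between Krt81, Krt83 and Krt86 they were 87.5% to 87.9% identical. Krt32 and Krt35 were 72.1% identical to each other and at most 76.4% identical to any other type I member. Of windows of 150 bases, a length chosen here because the read length is not given in the sources used here, 16.5% in Krt81 and 14.4% in Krt86 occurred unchanged in the coding transcript of another gene, mostly in each other. The share was 10% in Krt34, 9.52% in Krt33a and 6.35% in Krt31, and 0% in Krt32, Krt33b, Krt35 and Krt83. Of windows of 50 bases, 43.3% in Krt86, 43.2% in Krt81, 33.1% in Krt34, 28.1% in Krt31, 24.2% in Krt33b, 23.2% in Krt83 and 21.9% in Krt33a were shared, against 3.95% in Krt35 and 0% in Krt32. Fragments from shared windows could have been given to either gene by the authors' counting, so the values of the 7 cortex members are uncertain to that extent. Krt85 was left out of these comparisons, since its locus matched no single annotated gene. How well it can be told apart from other genes is therefore not known here.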

How the data were processed

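RNA of BLM-treated mouse skin was sequenced as paired-end reads in 4 libraries, and groups and replicate numbers were taken from the sample titles. Reads were aligned by the authors with HISAT2 (2.0.1) to the mm9 genome. Their methods describe counts per gene, and the processing notes also list StringTie (2.0.6). The deposited table, named as counts, holds FPKM values that the authors had scaled by length and depth before deposit, since 99.993% of values above 0 are not whole. Limma on log values was therefore used in place of a count model. The FPKM values of a library sum to 448544 to 462251, and of 24441 names 26 had been turned into dates. The members and gene lists were chosen with earlier results of these data known.

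Values were transformed to log2(FPKM + 1) and limma (3.58.1, under R 4.3.3) was run on the 13027 genes that reached 1 FPKM in 2 or more libraries, on genotype alone, with a mean-variance trend and Benjamini-Hochberg adjustment. The fit was tested on simulated data. Members that failed the filter were read from a fit of all 19663 genes above 0. The FPKM worth of 1 fragment on 1 kb was estimated at 0.0572 to 0.0787 from low genes with a single coding transcript of at least 2 kb, so fragment numbers are approximate and cover counting error only. Gene positions and transcripts came from GENCODE on mm9, where 99.21% of 20132 genes matched by symbol overlapped the table's locus, and promoters from RefSeq. Genes named in the text are the members, genes of the lists, and the 5 tested genes with the nearest profiles. Other scalings, filters, pseudocounts, no trend, the replicate number as a block and each library left out were tried as alternatives.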

Additional observations from a re-analysis of the deposited data

How the results depend on the processing

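With 2 libraries per group, no call could be tested for its spread beyond these mice, and levels under about 3 fragments are not distinguishable from 0. Of 126 log2 fold changes of members under the alternatives, 124 kept their direction. The exceptions were Krt31 at -0.0027 and Krt81 at -0.051 without KO replicate 1, against 3.03 and 2.65 without KO replicate 2. The filter, trend and block settings leave a fold change as it is. Only the fit without KO replicate 1 lacks the library that was highest for all 10 members. The count of 124 was thus largely fixed in advance, and nothing is read from it. With all 10 members in the fit, 3 had an unadjusted p under 0.05 and a log2 fold change above 1, a count of 1 without the mean-variance trend. With a library left out, a group holds a single library, and this count depended on which library that was. Among tested members the count of 3 became 1 to 3 with a library left out, with 1 when either WT library was left out. Genes called at an adjusted p under 0.05 went from 0 to 0 to 2058 with a library left out, the higher genes at an unadjusted p from 802 to 266 to 1412, and the lower genes from 539 to 242 to 1605. The highest 3 counts came from leaving out KO replicate 1 and the lowest counts of higher and lower genes from leaving out WT replicate 2. Leaving out KO replicate 2 gave 43 called genes and 333 lower genes. The causes were not tested.

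Median-ratio factors moved the median log2 fold change of tested genes from 0.11 to 0.0069 and the split from 802 higher and 539 lower genes to 631 and 708, and upper-quartile scaling gave 627 and 697. The members' log2 fold changes ran from 1.23 to 2.77 under both scalings, and from 2.46 to 5.53 with a pseudocount of 0.1. Same-numbered WT and KO libraries had a correlation of deviations of -0.20, and the labels do not tie equal numbers to the same litter or batch. With the replicate number as a block, 0 genes were called, 907 were higher and 686 lower at an unadjusted p, and the members' adjusted p-values by limma began at 0.132. With the crossed replicate block, added after the data had been seen, 0 genes were called, 819 were higher and 681 lower at an unadjusted p. Of 224 list medians under the alternatives, 210 stayed within 1 SD between replicates. This SD was wide, and some medians within it changed sign. Without KO replicate 2 the fibroblast median went from -0.906 to 0.831 and the endothelial median from -1.17 to 0.0968. Without KO replicate 1 the epidermal median went from 0.626 to -0.512.

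The ratio of summed type I to type II chains stayed within 1 SD between replicates in 30 of 40 cases in which a member was left out. In WT replicate 1 it became 1.19 without Krt32, 4.70 without Krt83 and 3.16 without Krt85, and in WT replicate 2 it became 3.5 without Krt83. In KO replicate 1 it became 1.86 without Krt83 and 2.16 without Krt85. Within 1 SD, it fell below 1 in KO replicate 1, to 0.869, without Krt35, and in WT replicate 2 it went from 0.928 to 0.292 without Krt32. In KO replicate 2 it became 1.05 without Krt32, 1.28 without Krt35, 2.78 without Krt83 and 6.13 without Krt85. By construction, a chain left out lowers its own side of the ratio.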
